A study of Arabidopsis thaliana with 12 samples.

Results

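The transcripts described here read higher on Arabidopsis arrays at dawn than at any other sampled time. The name dawn-only refers to this rank, and most of them were also detected at the other times. They were chosen by their measured values. A probe set was taken when the lowest of the 3 ZT0 (6am) arrays read at least 6 on the log2 scale and lay at least 0.8 above the highest of the 9 arrays of the other times. Of 22746 probe sets that are not chip controls, 53 met this rule after expansin and XTH genes were set aside, which removed EXPA16 and XTH19. HYH, also named for exclusion, did not meet the rule. A unit of 1 on the log2 scale is a doubling. The same rule with each other time in the place of ZT0 took 10 probe sets at ZT6, 6 at ZT12 and 50 at ZT18. The height of the dawn values and their distance from the other arrays are therefore given as descriptions, without tests.

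All 12 arrays came from 1 genotype, CCA1-ox, an Arabidopsis thaliana line in the Columbia background that overexpresses the clock gene CCA1. Seedlings were 10 days old and had grown in 16 h light and 8 h dark on sucrose (1%) agar. Their aerial part was taken at ZT0, ZT6 (noon), ZT12 (6pm) and ZT18 (midnight), with 3 arrays per time. Zeitgeber time (ZT) is the number of hours since the lights came on. Both ZT6 and ZT12 were therefore daytime points, and ZT18 was a night point. Wild-type seedlings were not analysed here, so nothing here is a comparison with a normal clock, and every group shares the CCA1 overexpression. CCA1 is a MYB transcription factor that in normal plants peaks around dawn and represses evening genes. Plants that make it all day lose self-sustained rhythms in constant conditions, but they still see light and dark. Near dawn a plant ends its night use of stored starch, and hypocotyl growth in short days is fastest at that time.

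Times were taken from the sample titles. A separate characteristic for harvest time gave another time on 9 of 12 arrays, and grouped by that label 0 probe sets met the rule. Signal on the 3 pairs of 3' and 5' probe sets for control transcripts, a sign of RNA integrity and labelling, differed by 3.24 ± 0.18 on the ZT0 arrays, 3.31 ± 0.17 on those of ZT6 and 3.2 ± 0.31 on those of ZT12, against 3.88 ± 0.27 for ZT18 (log2, SD, n = 3 each). The ZT18 arrays thus stood apart from the rest on this measure. The leaf markers RCA, SBPASE and PRK read 12.76 to 14.44 over the 12 arrays. The mean of each was lowest at ZT0 (13.71, 12.98 and 13.42) and highest at ZT12 (14.29, 13.98 and 14.05). The root-hair markers EXPA7 and EXPA18 lay at the floor of the scale, 2.06, while PYK10, also listed as a root marker, read 12.55 to 13.44. In whole seedling tops, fewer cells of a type and less RNA per cell cannot be told apart.

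The platform annotation gave 1 gene for 25 of the 53 probe sets, several genes for 2, and none for 26, which are called by their probe set number. Unlisted probe sets could include genes of the families that were set aside. The margin between the lowest ZT0 array and the highest other array ran from 0.83 to 5.13 with a median of 1.05; it was at least 1 for 33 members and at least 2 for 5. Just inside the limit of 0.8 lay AT3G24450 and AT3G62330, both 0.83 after rounding, and just outside lay 253829_at and LIS, both 0.79. At the limit on level, the lowest ZT0 array of AT3G49210 read 6.01, while AT3G60650 was outside at 5.97. Mean ZT0 values of the members spanned 6.24 to 12.58, with a median of 9.48 against 8.60 for all 14016 probe sets tested. As the rule set a limit of 6 on the dawn arrays of members only, this difference was partly fixed in advance. In linear terms ZT0 stood above ZT6 by a median of 4.18-fold (2.2 to 80.3), above ZT12 by 3.81-fold (2.43 to 80.3) and above ZT18 by 3.33-fold (2.01 to 59.6). Values under 4 were taken as not detected, and a fold against a time whose arrays all lay there was set against 4 and is a lower bound.

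**Figure D1:**
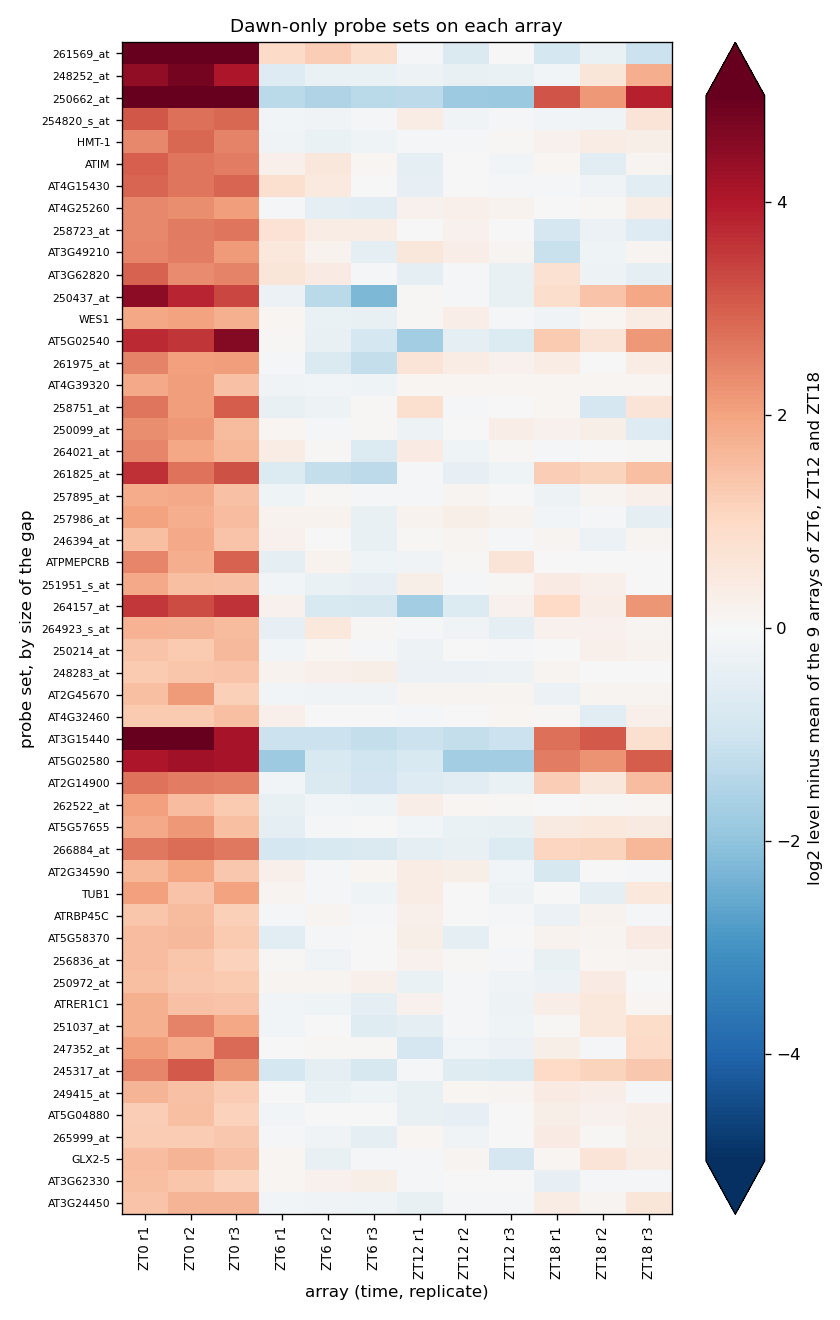
Log2 value of each of the 53 dawn-only probe sets on each of the 12 arrays, as the difference from the probe set's mean over the 9 arrays of ZT6, ZT12 and ZT18; columns are arrays by time and replicate. The ZT0 columns are high by construction, and 14 members also stand higher at ZT18 than at both daytime times.

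The widest margins belonged to 261569_at and 2 other unnamed probe sets. Probe set 261569_at read 10.24, 9.85 and 9.60 at ZT0, and 4.2, 4.48 and 4.12 at ZT6. It read 3.18, 2.50 and 3.23 at ZT12 and 2.34, 2.91 and 2.14 at ZT18. The 9 other arrays were therefore far below dawn, and those of ZT12 and ZT18 lay under the detection limit, where they have no order. For this transcript ZT0 stood at least 59.6-fold above ZT18. Probe set 250662_at read 10.67, 10.07 and 10.24 at ZT0 and at most 2.65 on any array of ZT6 or ZT12. At ZT18 it already read 7.12, 6.13 and 7.85. The third, 248252_at, read 8.18, 8.51 and 7.79 at ZT0 and 3.59, 4.35 and 5.53 at ZT18, with all ZT6 and ZT12 arrays under 4.

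Several named members act in the cell wall and cytoskeleton. AT4G25260, of the invertase and pectin methylesterase inhibitor family, read 11.37, 11.27 and 11.05 at ZT0. Its other arrays read 8.88, 8.50 and 8.41 at ZT6, 9.16, 9.20 and 9.14 at ZT12, and 8.97, 9.0 and 9.34 at ZT18. Dawn stood 6.22-fold above ZT6 and 4.36-fold above ZT18. A second member of the same inhibitor family, AT3G62820, read 10.64, 10.04 and 10.18 at ZT0, and its other arrays ran from 7.21 to 8.45. ATPMEPCRB, a pectin methylesterase, the kind of enzyme that such inhibitors block, read 7.68, 7.05 and 8.19 at ZT0 against 4.76 to 5.90 elsewhere. The set thus held both an enzyme of this kind and genes of the inhibitor family. AT4G32460, a cell wall protein of the DUF642 family, read 9.43, 9.41 and 9.60 at ZT0 and 7.53 to 8.38 on the others. TUB1, a beta-tubulin of plant microtubules, read 10.03, 9.42 and 9.97 at dawn. On the ZT6 arrays it read 8.11, 7.92 and 7.76, on the ZT12 arrays 8.33, 7.99 and 7.73, and on the ZT18 arrays 8.00, 7.47 and 8.49. Its 3 other times lay together, with group means from 7.93 to 8.02.

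Hormone-related members were WES1 and AT2G14900. WES1 (GH3.5) is an acyl amido synthetase that joins auxin to amino acids and so lowers free auxin. It read 10.61, 10.69 and 10.45 at ZT0 and 8.31 to 9.06 on the other 9 arrays, and dawn stood 3.48-fold above ZT18. AT2G14900, of the gibberellin-regulated (GASA) family of small secreted proteins, read 12.23, 12.08 and 12.05 at ZT0. Its ZT18 arrays read 10.73, 10.07 and 11.06, above every ZT6 and ZT12 array (8.57 to 9.36).

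Metabolic enzymes formed another group. HMT-1, a homocysteine S-methyltransferase that makes methionine, had the widest margin of the named members, 2.06. It read 7.5, 7.96 and 7.58 at ZT0, 4.91, 4.76 and 4.86 at ZT6, 5.03, 4.97 and 5.15 at ZT12, and 5.28, 5.44 and 5.36 at ZT18. The replicates lay close together outside dawn (SD 0.08 to 0.09) and less so at ZT0 (SD 0.25), and dawn stood 4.98-fold above ZT18. AT5G57655, of the xylose isomerase family, read 11.71, 11.95 and 11.29 at ZT0 and 10.26, 10.33 and 10.24 at ZT18. AT2G34590, a beta subunit of the plastid pyruvate dehydrogenase E1 enzyme, read 11.93, 12.25 and 11.61 at ZT0 and 9.48 to 10.67 elsewhere. GLX2-5, a mitochondrial glyoxalase 2, read 9.07, 9.21 and 9.01 at dawn and 6.69 to 8.17 elsewhere. These enzymes belong to different pathways. AT5G02540, of the short-chain dehydrogenase family, read 9.82, 9.66 and 10.70 at ZT0 and 4.38 to 8.26 on the rest, and dawn stood 30.2-fold above ZT12. AT3G49210, of the wax ester synthase and diacylglycerol acyltransferase family, read 6.30, 6.42 and 6.01 at ZT0 and 2.74 to 4.42 on the rest. AT2G45670, a lysophospholipid acyltransferase, read 7.27, 7.89 and 6.95 at dawn, but 5 of its 9 other arrays shared the value 5.91. Identical values on several arrays also occurred for AT4G39320, at 4.71 on 5 arrays, and 6 members in all had at least 3 of the 9 arrays equal at 2 decimals. Whether such values are the lowest these probe sets can give was not tested, and their folds are open to that limit.

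Members that act on DNA, RNA and membranes completed the named set. ATIM, the Arabidopsis homologue of TIMELESS, which in yeast and animals protects replication forks, read 9.75, 9.46 and 9.34 at ZT0. It read 7.05, 7.34 and 6.88 at ZT6, 6.34, 6.77 and 6.66 at ZT12, and 6.88, 6.21 and 6.90 at ZT18. Its lowest dawn array lay just under 2.00 above its highest other array, and the day and midnight arrays overlapped. ATRBP45C, an RNA-binding protein, read 10.76, 10.96 and 10.56 at dawn against 9.08 to 9.64. AT5G58370, a P-loop nucleotide triphosphatase, read 8.06, 8.12 and 7.82 against 6.00 to 6.91. AT4G15430, of the OSCA family of membrane channels gated by osmotic stress, read 7.90, 7.65 and 7.90 at ZT0 and 4.44 to 5.77 elsewhere. For this channel midnight was the lowest time, and dawn stood 8.62-fold above it. ATRER1C1, a receptor that returns proteins from the Golgi to the endoplasmic reticulum, read 8.94, 8.63 and 8.60 at dawn and 6.70 to 7.71 elsewhere. AT5G02580 and AT3G15440, for which no role is given here, are described with the tests of midnight against day. AT5G04880 is a transcribed pseudogene in RefSeq and read 11.22, 11.49 and 11.17 at ZT0 and 9.61 to 10.32 elsewhere.

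**Figure D2:**
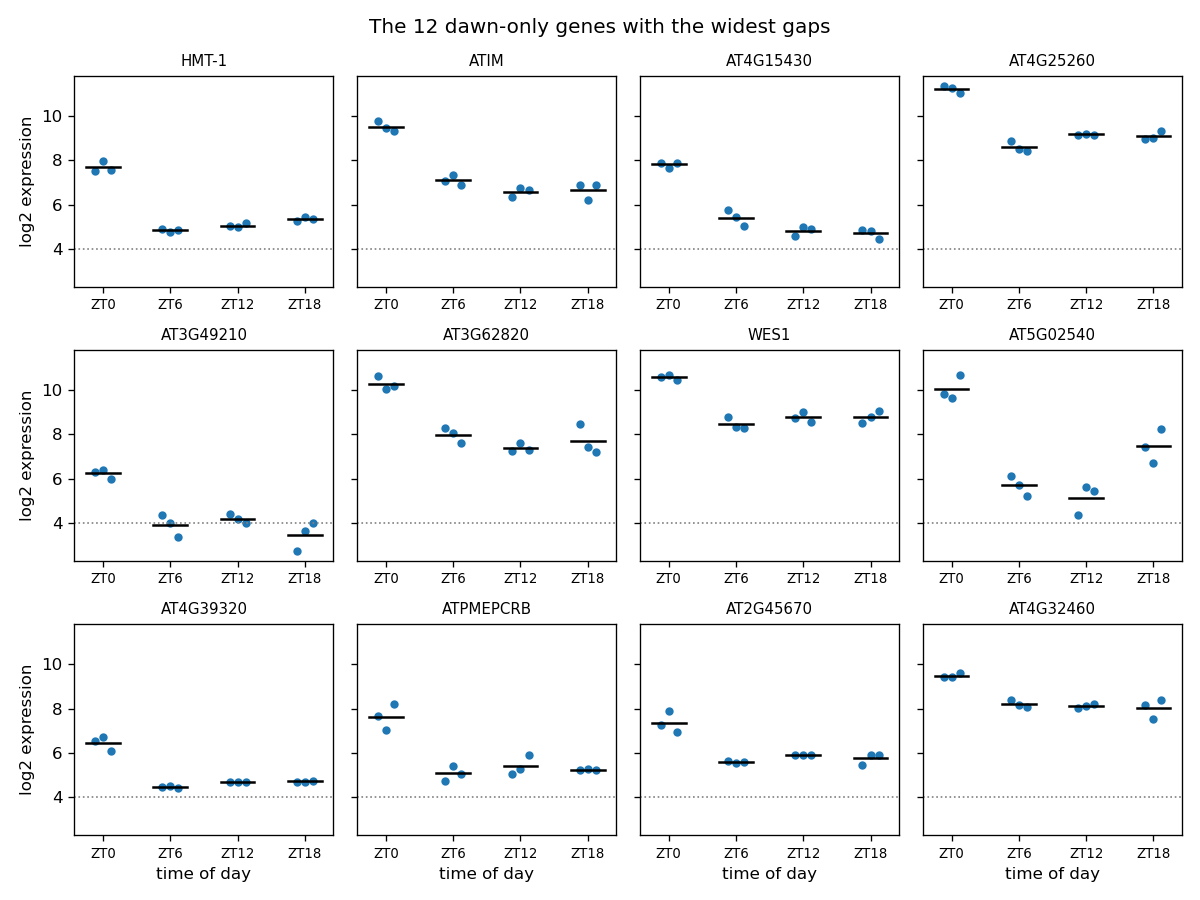
Log2 values on the single arrays (points) and the mean per time (bars) for the 12 named members with the widest margins, at ZT0, ZT6, ZT12 and ZT18; the dotted line is the detection limit of 4. In HMT-1 the 9 other arrays lie between 4.76 and 5.44, while in AT5G02540 the ZT18 arrays (6.73 to 8.26) lie between day and dawn.

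The rule set only a ceiling on the 9 arrays of ZT6, ZT12 and ZT18, so the 3 comparisons among these times were tested (limma over all 14016 probe sets, two-sided, adjusted p under 0.05). Between the daytime points few members changed. From ZT6 to ZT12, 1 of 53 rose and 2 fell, against 1.08% and 1.04% of all probe sets. The median change was 0.10 for members and -0.03 for all probe sets, and 12 members (22.6%) had an unadjusted p under 0.05, against 19.6% of all probe sets. None of the 25 named members passed here. Probe set 261569_at was 1 of those that fell, from arrays all above 4 at ZT6 to arrays all below it. It was at least 1.2-fold lower at ZT12. The test took the full difference of -1.29, which rests on undetected ZT12 values (adjusted p = 0.0246). Members had 0 calls in this comparison without ZT6 replicate 2 or without ZT6 replicate 3, and 1 call without ZT12 replicate 1 or without ZT12 replicate 2. For 261569_at the adjusted p was 0.0584, 0.128 and 0.0966 without ZT6 replicate 1, 2 and 3, and 0.055 and 0.0883 without ZT12 replicate 1 and 2.

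From ZT12 to ZT18, 18 of 53 members (34.0%) rose and 1 fell, where 26.1% of all probe sets rose and 24.4% fell. From ZT6 to ZT18, 20 members (37.7%) rose and 4 (7.55%) fell, against 22.8% and 23.4%. Probe set 248252_at, counted as higher in both comparisons, had passed the filter on low values only through its ZT0 arrays. With the filter applied to the 9 other arrays, 17 members rose and 1 fell over ZT12, and 19 rose and 4 fell over ZT6. Over all probe sets that filter gave 7042 and 6454 calls, against 7078 and 6478 in the main fit. The median changes were 0.23 and 0.30 for the 53 members, against 0.01 and -0.01 for all probe sets. The 2 comparisons share the ZT18 arrays, which carried the larger 3' to 5' difference. With that difference as a covariate, 8 of the 19 calls against ZT12 and 15 of the 24 calls against ZT6 were kept. Calls over all probe sets numbered 3721 and 4565 with it, where the main fit gave 7078 and 6478. The part of the 3' to 5' difference in the other calls was not tested further.

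Altogether 14 members (26.4%) were higher at ZT18 than at both daytime points, against 19.2% of all probe sets. This count and the medians below include 248252_at, which passed the filter on low values only through its ZT0 arrays. Of the 14, 6 have 1 gene and 8 are unnamed. With the 3' to 5' covariate 7 of the 14 kept both calls, and 248252_at is among those that did not. That is 13.2% of the members, against 10.7% of all probe sets. In this group ZT18 exceeded the mean of the daytime points by a median of 1.84 and ZT0 exceeded ZT18 by a median of 1.74. AT5G02580 read 3.5, 4.54 and 4.34 at ZT6, 4.57, 3.57 and 3.57 at ZT12, 7.87, 7.58 and 8.33 at ZT18, and 9.35, 9.53 and 9.45 at ZT0. From ZT12 to ZT18 it rose by 4.03 ± 0.31 (SE, adjusted p = 7.5e-07), with every ZT18 array above every daytime array. As 2 of its ZT12 arrays lay under 4, this size rests partly on values taken as not detected. AT3G15440 lay between 2.09 and 2.23 on all daytime arrays and read 6.05, 6.37 and 4.09 at ZT18 and 8.38, 9.10 and 7.40 at ZT0. It was at least 2.84-fold higher at ZT18 than at ZT12, and its dawn and night arrays were its most scattered. The test took the full difference of 3.31, which rests on undetected daytime values (adjusted p = 0.000172). AT2G14900 rose by 1.60 ± 0.23 over ZT12 (adjusted p = 0.000119). These 3 genes kept their calls against ZT12 with the 3' to 5' covariate, at adjusted p = 0.000141, 0.0128 and 0.00863.

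The remaining 3 named genes of the group were AT5G02540, AT5G57655 and AT3G24450. AT5G02540 read 6.15, 5.72 and 5.23 at ZT6, 4.38, 5.62 and 5.43 at ZT12 and 7.42, 6.73 and 8.26 at ZT18. It rose by 2.33 ± 0.42 over ZT12 (adjusted p = 0.000578), and by 1.79 with the covariate, which did not pass (adjusted p = 0.0671). AT5G57655 rose by 0.76 ± 0.16 (adjusted p = 0.00178), and with the covariate the change was again 0.76 (adjusted p = 0.053). AT3G24450, of the heavy-metal-associated domain family, rose by 0.56 ± 0.15 (adjusted p = 0.00822), against 0.37 with the covariate (adjusted p = 0.266). AT5G02540 and AT5G02580 lie near each other on the same chromosome with 3 genes between them in the RefSeq order.

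**Figure D3:**
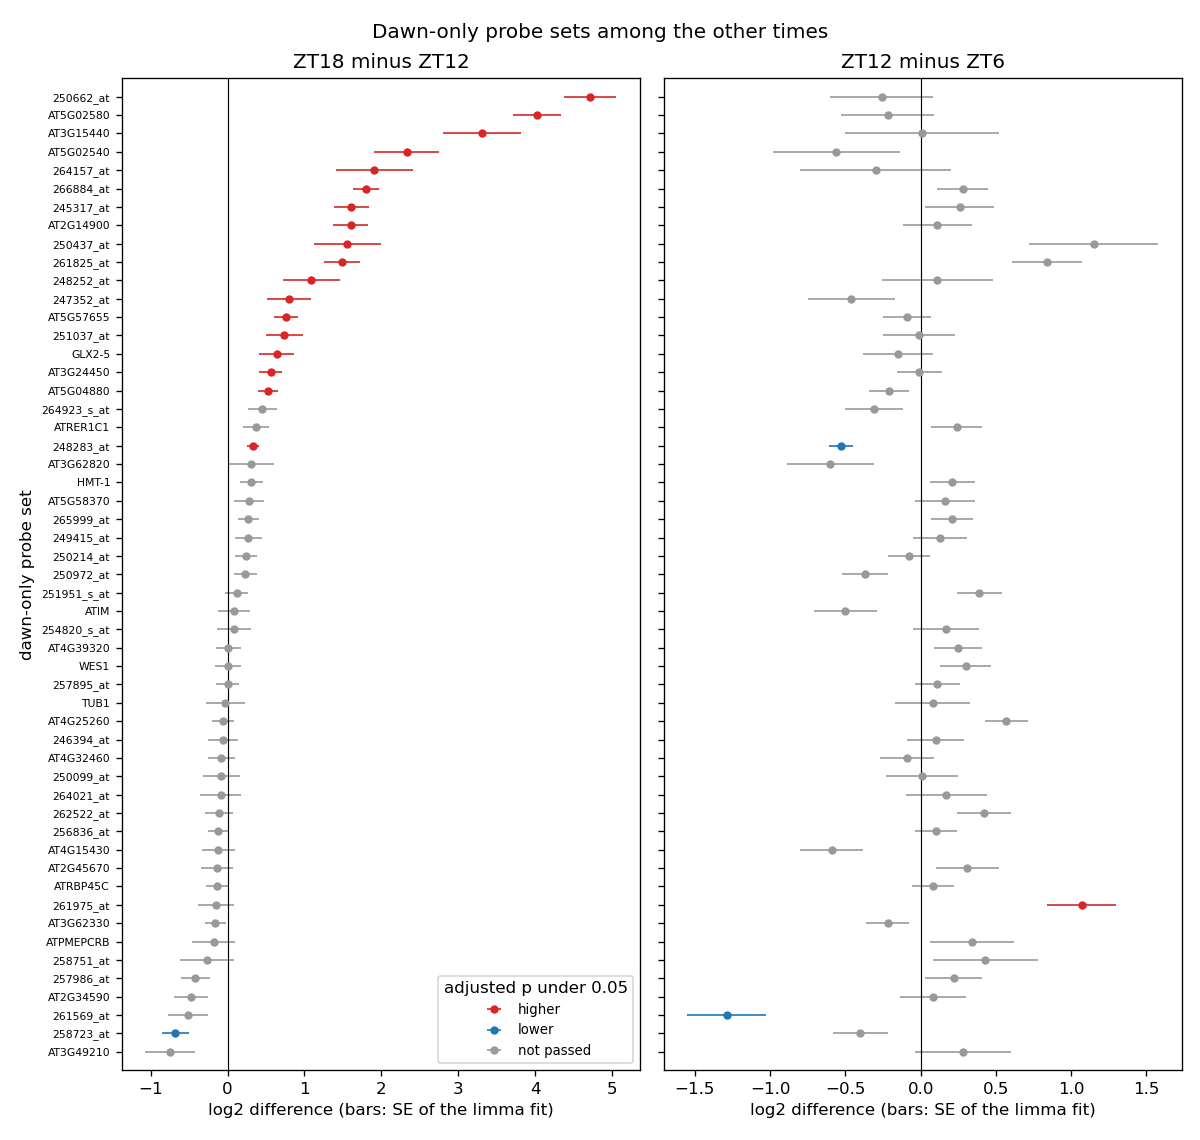
Log2 difference (points, with the SE of the limma fit as bars) of ZT18 from ZT12 and of ZT12 from ZT6 for the 53 members, coloured by whether they passed as higher, lower or not at all. On the left 18 members are higher at ZT18, and on the right 3 members passed in either direction.

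Other named members passed in 1 comparison. Over ZT6, midnight was higher for HMT-1 (0.52 ± 0.15, adjusted p = 0.0135), AT4G25260 (0.51 ± 0.14, adjusted p = 0.011) and ATRER1C1 (0.62 ± 0.17, adjusted p = 0.00819). With the covariate ATRER1C1 kept its call (0.80, adjusted p = 0.0201). HMT-1 was at 0.39 (adjusted p = 0.187) and AT4G25260 at 0.47 (adjusted p = 0.109), and neither passed. HMT-1 also lost it without ZT6 replicate 2 (adjusted p = 0.0523) and AT4G25260 without ZT6 replicate 3 (0.0549). Over ZT12, midnight was higher for AT5G04880 (0.53 ± 0.13, adjusted p = 0.00356) and GLX2-5 (0.64 ± 0.23, adjusted p = 0.0338). With the covariate they were at 0.38 (adjusted p = 0.169) and 0.59 (adjusted p = 0.275), and neither passed. The ZT18 and ZT12 arrays of GLX2-5 overlapped, and its adjusted p was 0.152 without ZT12 replicate 3, 0.125 without ZT18 replicate 2 and 0.0686 without ZT18 replicate 3. In the opposite direction, AT4G15430 fell by 0.71 from ZT6 to ZT18 (SE 0.21, adjusted p = 0.0134) and AT3G62330, a zinc knuckle protein, fell by 0.39 (SE 0.14, adjusted p = 0.0423). With the covariate the changes were -0.76 and -0.55, as large or larger, and did not pass (adjusted p = 0.0774 and 0.0523). For AT4G15430 the adjusted p was 0.067 without ZT6 replicate 1 and 0.0539 without ZT18 replicate 3. For AT3G62330 it was 0.0511 to 0.137 without any 1 of the ZT6 arrays, ZT18 replicates 1 and 2, ZT12 replicates 2 and 3, or ZT0 replicate 2. Among unnamed members, 258723_at was lower at ZT18 than at both daytime points, with 3.76, 4.28 and 3.95 against 4.61 to 5.31, a pattern of 19.0% of all probe sets.

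The largest group, 25 members, passed in none of the 3 comparisons (47.2%, against 41.5% of all probe sets), 12 of them with 1 gene. Over their 9 arrays outside dawn the distance between the lowest and the highest array was 0.31 to 1.68. WES1 changed by 0.01 ± 0.17 (SE) from ZT12 to ZT18, TUB1 by -0.03 ± 0.25, ATIM by 0.08 ± 0.21 and ATRBP45C by -0.14 ± 0.14. ATIM differed by -0.50 ± 0.21 from ZT6 to ZT12 (adjusted p = 0.206) and AT3G49210 by -0.75 ± 0.32 from ZT12 to ZT18 (adjusted p = 0.0664). A p above the threshold does not show that these levels were equal.

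By mean level, ZT18 was the second-highest time for 27 members, ZT12 for 17 and ZT6 for 9. The lowest time was ZT6 for 26, ZT12 for 16 and ZT18 for 11. The single highest array outside dawn was a ZT18 array for 32 members, and ZT18 replicate 3 for 21. Matching shares over all probe sets were not computed, so these ranks are not read as particular to the members. Among the dawn arrays, replicate 3 was the lowest for 31 members and differed from the mean of the other dawn arrays by a median of -0.19, against 0.02 over all probe sets. Since the rule uses the lowest dawn array, that replicate set the margin for most members, and without it 166 probe sets met the rule. The median SD of members was 0.24 for the dawn arrays, 0.19 for ZT6, 0.20 for ZT12 and 0.26 for ZT18. Over all tested probe sets it was 0.182, 0.116, 0.145 and 0.197, also largest at ZT18.

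Named relatives of the members were set beside them, chosen by family after the members were known. Of 17 relatives in 7 families, 12 were tested and 0 met the dawn rule, with margins from -2.00 to 0.35. Against ZT18, 4 of the 12 were higher at ZT0 and 1 was lower (all probe sets 18.6% and 18.5%). Against ZT6 8 were higher and 1 lower (28.4% and 27.6%), and against ZT12 6 were higher and 0 lower (28.4% and 25.6%; PMEPCRF was also lower with the replicate number as a block, at -0.42 and adjusted p = 0.045). With the 3' to 5' covariate, 1 relative was higher and 1 lower at ZT0 than at ZT18. Among beta-tubulins, TUB6 came nearest, with a margin of 0.35 and a dawn level higher than ZT18 by 0.94 ± 0.14 (SE, adjusted p = 0.000403). TUB9 was higher at dawn by 0.36 ± 0.10 (adjusted p = 0.0127; 0.25 and adjusted p = 0.238 with the covariate), while TUB5 (0.03 ± 0.12) and TUB7 (-0.13 ± 0.11) did not pass. RBP45B, a relative of ATRBP45C, was higher at dawn than at each other time, by 0.46 ± 0.09 over ZT18 (adjusted p = 0.00138; 0.32 and adjusted p = 0.069 with the covariate). The pectin methylesterase PMEPCRF was lower at dawn than at ZT18 by 1.16 (-1.16 ± 0.18, adjusted p = 0.000405). GH3.3, a relative of WES1, was higher at dawn than at ZT6 by 2.35 ± 0.32 (adjusted p = 4.16e-05) but by 0.67 ± 0.32 over ZT18, which did not pass (adjusted p = 0.112).

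**Figure D4:**
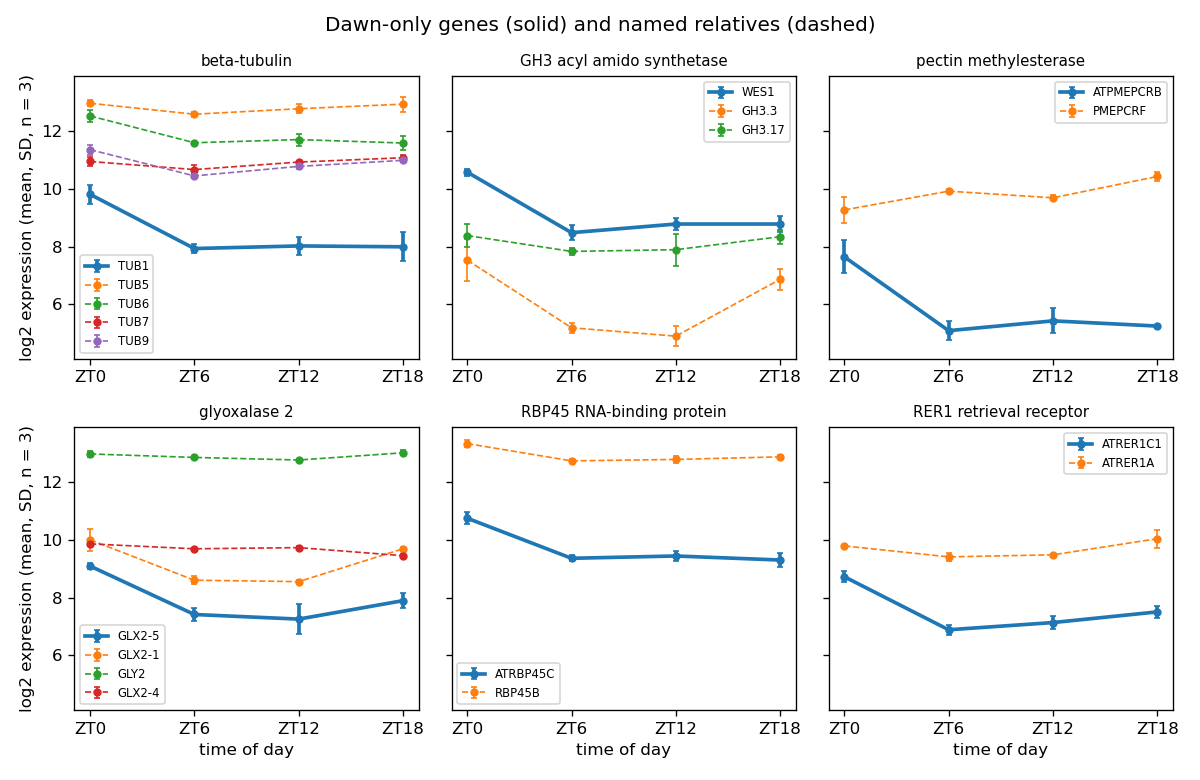
Mean log2 value per time (bars are SD, n = 3) for dawn-only members (solid) and their tested named relatives (dashed) in 6 families, at ZT0, ZT6, ZT12 and ZT18. The solid lines have their peak at ZT0; no relative reached a margin of 0.8, and levels of different probe sets are not comparable.

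Gene lists for 14 pathways and cell types held 461 symbols. A named probe set existed for 55 of them, and 48 passed the filter on low values; 1 of the 48, WES1, was a dawn-only member. The counts that follow leave WES1 out and stand against 18.6% of all probe sets higher and 18.5% lower at ZT0 than at ZT18, and 26.1% and 24.4% at ZT18 than at ZT12. The ZT18 arrays, with their larger 3' to 5' difference, enter each of them. The list for darkness and sugar starvation had 11 tested genes, whose induction by either was not tested here. Of these 11, 8 were higher at ZT0 than at ZT18 and 0 lower, with a list median of 0.45. These 8 were mostly of the ATG8 family (ATG8B, ATG8C, ATG8E, ATG8F, ATG8H and APG8A), with IVD and MCCA. With the 3' to 5' covariate 2 of the 11 were higher, and with the replicate block 9. At ZT18, 6 were higher and 1 lower than at ZT12, and 8 and 0 with the covariate. Of the 8, only IVD, MCCA and ATG8E were among these 6. ATG8H was the 1 that was lower, and its ZT0 mean of 8.68 lay under its daytime means (8.80 for ZT6, 8.99 for ZT12). In the rest of the 8 the ZT0 mean lay above both daytime means. Of the 4 other auxin-response genes, IAA29 was higher at dawn than at ZT18, and 3 (GH3.3, IAA18 and IAA29) were higher at ZT18 than at ZT12. The list for PIF-dependent growth and shade had 5 tested genes, SPT, ALC, HAT2, BIM1 and FHL, whose dependence on PIF factors was not tested. FHL was higher and ALC lower at dawn than at ZT18, while 4 of the 5 were higher at ZT18 than at ZT12 (3 with the covariate). Of 4 gibberellin genes, GID1C and SLY1 were higher at dawn than at ZT18, and 0 with the covariate. At ZT18, 2 of the 4 were higher and 1 lower than at ZT12, and 0 of either with the covariate. Of 3 ethylene genes 1 was higher at dawn, and 0 with the covariate, and 3 were higher at ZT18 than at ZT12. Lower at dawn than at ZT18 were 3 of 8 photosynthesis genes, 2 of 5 cold and dehydration genes, 1 of 2 starch genes, 1 of 2 clock genes, 1 of 3 leaf markers and 1 of 1 root marker, with 0 higher in any of these lists. With the covariate the root marker did not pass and 2 of 3 leaf markers were lower, and with the replicate block 2 of 2 starch genes were lower. At ZT18, 3 of 3 leaf markers, 2 photosynthesis genes and 1 starch gene were lower than at ZT12, with 0 higher. Of the cold and dehydration genes 2 were lower and 1 higher, and of the clock genes 1 and 1. The root marker did not pass. With the covariate 0 genes of these lists were lower, while 1 cold and dehydration gene and 1 clock gene were higher. The brassinosteroid, abscisic acid and light signalling lists had no named probe set here.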

How the data were processed

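The authors deposited log2 expression values, 1 per probe set and array. The submitters' processing notes list GCRMA, affy 1.42.3 and R 3.1 without settings. The labels do not say whether replicates were separate cultures, so every p-value covers only array-to-array spread, which may be technical, and the number of arrays limits the precision. Probe sets reaching 4 on at least 3 arrays were tested, 14016 of 22746. The fit took means per time over all 12 arrays in limma 3.58.1 (R 4.3.3, lmFit, eBayes with a variance trend, Benjamini-Hochberg over all tested). It was also run on simulated arrays drawn independently, with no link between same-numbered arrays and no 3' to 5' difference. That run therefore cannot give the error rate of the calls here. Differences have limma's SE. Names came from the platform annotation through Entrez identifiers to RefSeq (TAIR10.1), where all 25 single genes matched. All members with 1 gene and the unnamed ones with the widest margins are named. Members and lists were chosen with earlier results of these data known. Alternatives were other limits of the rule, filters, centring, quantile normalization, the 3' to 5' covariate, the replicate block and leaving out each array. Same-numbered arrays of ZT0 and ZT18 (r 0.185 to 0.322 in deviations from the group means) and of ZT0 and ZT12 (0.191 to 0.403) deviated together in 3 of 3 pairs, so blocked values are given for those comparisons where they change a call; this pairing rests on the data, not on the labels. Promoter motifs, planned for the members, were not analysed here.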

Additional observations from a re-analysis of the deposited data

How the results depend on the processing

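The number of dawn-only probe sets depended on the limits: it was 33 with a margin of 1.0, 126 with 0.6 and 0 when arrays were grouped by the harvest-time characteristic, and 53 to 166 when each array was left out in turn (166 without ZT0 replicate 3, at most 77 otherwise). Limits on level of 5 and 7 gave 63 and 46, and median centring and quantile normalization 63 and 58. Members called between ZT6 and ZT12 numbered 1 with no filter, 5 with the replicate block and 0 to 4 with 1 array left out; over all probe sets these calls were 297, but 145 with no filter, 815 with the block, 752 from the 6 arrays compared, 23 without ZT6 replicate 2 and 36 without ZT6 replicate 3. For ZT18 against ZT12 and ZT6, the 3' to 5' covariate left 8 and 15 calls (3721 and 4565 over all probe sets). Leaving out 1 array gave 17 to 20 and 18 to 25 (5956 to 7215 and 5440 to 6681 over all probe sets). Under that covariate 251037_at turned from 0.74 to -0.01 between ZT12 and ZT18 (adjusted p = 0.975); the cause was not tested. For the comparisons among ZT6, ZT12 and ZT18 the replicate numbers were not taken as pairs: same-numbered arrays correlated at -0.153 to 0.337, with 3 of 9 pairs over 0.1, although 12 of 12 arrays correlated best, on average, with their own number. The replicate block gave 21 and 25 calls for ZT18 against ZT12 and ZT6. Over all probe sets it gave 7631 and 7055, against 7078 and 6478 in the main fit. With the block AT4G25260 passed between ZT6 and ZT12 (adjusted p = 0.045), ATRER1C1 between ZT12 and ZT18 (0.0274) and AT5G04880 between ZT6 and ZT18 (0.0467). The filter over the 9 arrays outside ZT0, and the covariate and block for relatives and lists, were chosen after seeing the data. Of 3336 single values under an alternative, 85 lost their call, 31 gained one and 1 reversed.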
